A study of Mus musculus with 12 samples.

Results

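miR-210-3p is a mature microRNA (miRNA) cut from the downstream arm of the Mir210 hairpin, and it was followed here across the nuclear and cytoplasmic fractions of mouse endothelial cells exposed to hypoxia. It is the row named mmu-miR-210-3p, 1 of the 350 miRNAs in the deposited table, and it was chosen by name over all 12 libraries. C166 is a mouse endothelial cell line derived from the yolk sac. Its cells were grown in normoxia (0 h) or in 1% oxygen for 2 h or 24 h. They were split into nucleus and cytoplasm, and their small RNA was sequenced in 2 replicate libraries for each of the 6 groups. All libraries came from this single cell line, and the study calls the replicates biological. Equal amounts of RNA entered the sequencing according to the study, so a level here is relative to the RNA of its own fraction. The number of molecules per cell was not measured. The paper repeated RT-qPCR on new C166 cultures with a synthetic spike added to each fraction. For miR-210-3p it reports similar levels and hypoxic changes with the spike or its endogenous reference miRNA as the scale. It also reports miR-210-3p in nuclei by in situ hybridization, and its rise in hypoxia in both fractions of other mouse cell lines. Those data were not analysed here.

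miRNAs guide Argonaute proteins to target mRNAs, which are recognized mainly through the seed near the 5′ end of the miRNA. miR-210 is the best known miRNA of the hypoxic response. Its gene is transcriptionally activated by hypoxia-inducible factor (HIF), the oxygen-sensitive regulator that also switches on genes of glycolysis and angiogenesis. In human cells it is known to repress the iron-sulfur cluster scaffold gene ISCU and, in endothelial cells, the ephrin ligand gene EFNA3.

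The mature strands and the hairpin, from RefSeq on GRCm38.p6, are shown because the counts belong to the 3p strand only. In the mature sequences, capitals mark the seed (bases 2 to 8 from the 5′ end), and in the hairpin they mark both arms. The sequence of miR-218-5p is given beside them because its seed was the nearest found in the table.
mmu-miR-210-3p: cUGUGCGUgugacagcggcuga
mmu-miR-210-5p: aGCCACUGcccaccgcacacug
Mir210 hairpin: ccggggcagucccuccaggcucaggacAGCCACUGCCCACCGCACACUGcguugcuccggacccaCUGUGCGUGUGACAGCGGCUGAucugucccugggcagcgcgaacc
mmu-miR-218-5p: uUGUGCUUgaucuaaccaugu

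The hairpin lies on the minus strand at chr7:141221384-141221493, with the 3p strand at chr7:141221407-141221428. No gene of the RefSeq or GENCODE vM21 annotation overlaps it other than Mir210 itself. The nearest genes are Rassf7, which ends 2726 bp away, and Gm51460, which begins 6713 bp away on the other side. Among the rows whose name matched a RefSeq sequence, the nearest hairpin, Mir1839, lies 59691396 bp away, so none of these shares its transcript. The positions of the other rows were not searched. The 5p strand has no row in the table, so it could not be analysed here.

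The seed of miR-210-3p was its own. Of the 350 names, 301 matched a RefSeq mature sequence, and 0 other miRNAs among them carried the same bases 2 to 8. The same was true of the 1679 mature mouse sequences in the RefSeq table, of which 0 others shared it. miR-218-5p came closest, with 6 of the 7 seed positions in common. The GC content of miR-210-3p was 63.6%, against a median of 47.8% over the matched miRNAs, and ranked 17 from the top. It starts with C, as do 18.9% of the matched miRNAs (U was the more usual first base, at 42.5%), and holds 2 CpG steps, against a median of 0. The hexamer AGUGUU, which has been linked to nuclear import of miR-29b in human cells, was searched for because of the fractions compared here. Its letters are not in miR-210-3p and were found in 2 of the 301 matched miRNAs (0.664%). The rows without a matched sequence, such as miR-199b-5p, were not searched.

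miR-210-3p was present in both fractions before hypoxia and rose strongly in both at 24 h, with the higher level in the nucleus at each time on the deposited scale. Values are normalized counts, that is reads divided by the size factor of the library. In the cytoplasm the level was 1284 and 1206 at 0 h (mean 1245 ± 55.4, SD, n = 2), 1143 and 1099 at 2 h (1121 ± 31.0), and 6154 and 6195 at 24 h (6174 ± 29.0). Both libraries of the last time stood far above the other 4 cytoplasmic libraries, and those at 2 h lay just under those at 0 h without overlap. In the nucleus the level was 1684 and 1758 at 0 h (1721 ± 51.8), 2448 and 1906 at 2 h (2177 ± 383), and 12744 and 11948 at 24 h (12346 ± 562). Here too the 24 h libraries were far above the rest. The 2 h libraries both exceeded those at 0 h, but the 2 replicates at 2 h were the least alike of any group. At each time both nuclear libraries were above both cytoplasmic ones.

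**Figure D1:**
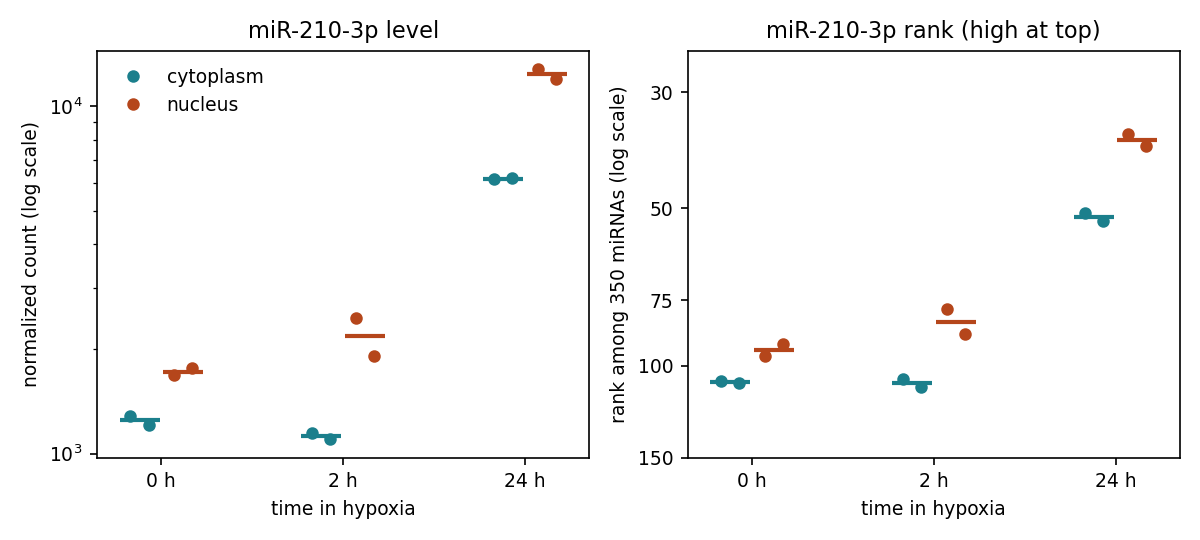
Normalized count of miR-210-3p (left, log scale) and its rank among the 350 miRNAs (right, log scale, rank 1 being the most abundant) in each of the 12 libraries, by time in hypoxia. Points are libraries, bars are group means, and the 24 h libraries (6154 to 12744 normalized counts) lie above all others in each fraction.

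The counts behind these levels were large. miR-210-3p took 47071 of the 60097008 miRNA reads recovered from the table, with 1195 to 11385 reads in each library. The libraries held 4708753 to 7787926 reads in the cytoplasm and 3379276 to 4375616 in the nucleus. The exact binomial 95% interval of its share of reads extended, on average to either side, by at most 5.71% of the share, and covers counting error only.

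miR-210-3p climbed in the order of abundance among the 350 miRNAs that had passed the study's filter on low reads. In the cytoplasm it ranked 107 and 108 of 350 at 0 h, 106 and 110 at 2 h, and 51 and 53 at 24 h. In the nucleus its ranks were 96 and 91 at 0 h, 78 and 87 at 2 h, and 36 and 38 at 24 h. Its neighbors give these ranks a scale. By group means it stood in the cytoplasm at 0 h between miR-214-5p (1249) and miR-425-5p (1184), and at 24 h between miR-148b-3p (6207) and miR-191-5p (5703). In the nucleus it stood between miR-677-5p (1832) and miR-423-5p (1695) at 0 h, and between miR-532-5p (12456) and miR-182-5p (12111) at 24 h.

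As a share of all miRNA reads, miR-210-3p remained a minor species even after 24 h. In the cytoplasm its share was 0.0262% and 0.0236% at 0 h, 0.0265% and 0.0196% at 2 h, and 0.158% and 0.174% at 24 h. In the nucleus it was 0.0322% and 0.0352% at 0 h, 0.0440% and 0.0351% at 2 h, and 0.260% and 0.227% at 24 h. In both fractions the shares at 0 h and 2 h overlapped and those at 24 h stood apart. In 5 of the 6 groups the intervals of the replicates did not overlap, as in the nucleus at 24 h (0.255% to 0.265% and 0.222% to 0.232%), so replicate libraries differed by more than counting error.

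miR-21a-5p, an abundant growth- and hypoxia-associated miRNA, held a large part of these totals. It took 60.3% and 57.7% of the cytoplasmic reads at 0 h and 51.0% and 48.8% at 24 h. In the nucleus it took 45.1% and 37.4% at 0 h and 57.0% and 57.2% at 24 h, so its direction was opposite in the 2 fractions. With miR-21a-5p left out of the denominator, the mean share of miR-210-3p was 0.0609%, 0.0538% and 0.331% in the cytoplasm and 0.0575%, 0.0776% and 0.568% in the nucleus at 0, 2 and 24 h. The libraries of the 2 fractions then overlapped at 0 h and still stood apart at 24 h.

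**Figure D2:**
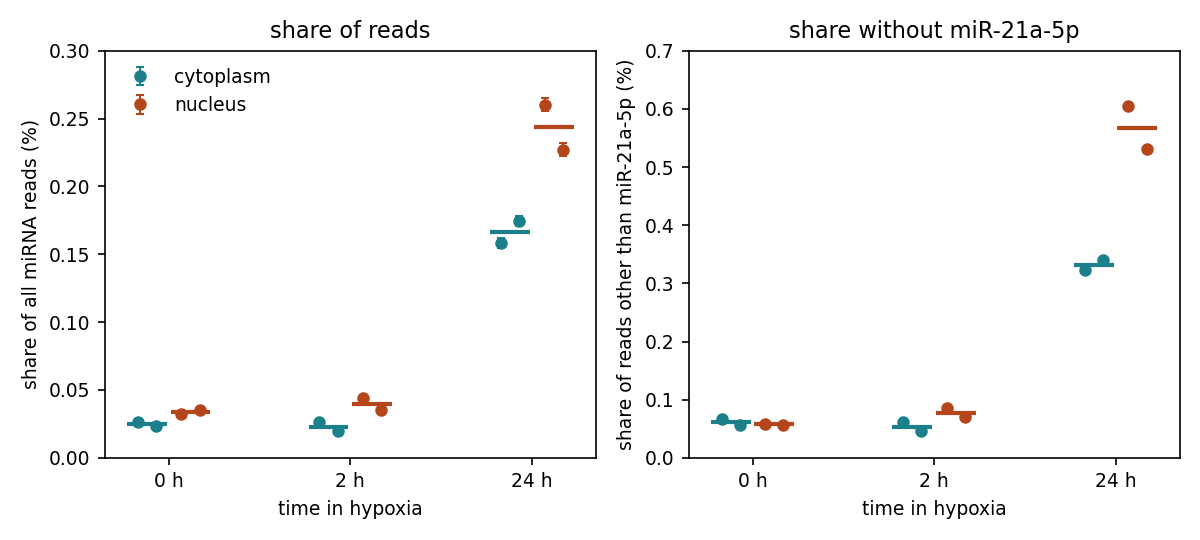
Share of miR-210-3p in all miRNA reads (left, percent, error bars are exact binomial 95% intervals) and in the reads other than miR-21a-5p (right, percent) by time in hypoxia. Points are libraries and bars are group means. On the left the nuclear mean is 0.0337% at 0 h and 0.244% at 24 h, and the cytoplasmic mean is 0.0249% and 0.166%.

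The response to hypoxia was tested within each fraction on log2(normalized count + 1) with limma, and a miRNA was called at an adjusted p under 0.01 and a change of at least 2-fold. In the nucleus miR-210-3p was up-regulated 7.17-fold at 24 h against 0 h (95% interval 5.56 to 9.24). The log2 fold change was 2.84 ± 0.17 (SE), with a limma adjusted p of 1.14e-08, and both 24 h libraries were above both 0 h libraries. It was the largest rise of the 350 miRNAs, of which 73 (20.9%) were called. In the cytoplasm it was up-regulated 4.96-fold (3.87 to 6.35), with a log2 fold change of 2.31 ± 0.17 and a limma adjusted p of 7.42e-10. This was the largest change in either direction there, where 48 miRNAs (13.7%) were called. Only miR-31-5p in the nucleus changed by more, and it fell.

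The rise came after 2 h. Against 2 h, the 24 h level was 5.71-fold higher in the nucleus (limma adjusted p = 6.29e-08, 8.29% of miRNAs called) and 5.51-fold higher in the cytoplasm (limma adjusted p = 2.00e-10, 7.43% called). It was the largest rise in both. At 2 h against 0 h the nuclear log2 difference was 0.33 ± 0.17 and was not called (limma adjusted p = 0.203), with an interval of -0.039 to 0.69. The cytoplasmic difference was -0.15 ± 0.17 (limma adjusted p = 0.870), with an interval of -0.51 to 0.21. At 2 h 0 of 350 miRNAs (0%) were called in either fraction by limma, and 0 by limma-voom, while 102 in the nucleus and 39 in the cytoplasm had an unadjusted p under 0.05. The nuclear difference was 0.51 when replicate 2 of that time was left out and 0.15 when replicate 1 was, so the size of any early nuclear difference rested on a single library.

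How far miR-210-3p rose depended on the scale on which the libraries were put. The 24 h against 0 h change of group means in the nucleus was 7.23-fold when the libraries were scaled to the total count, 9.88-fold without miR-21a-5p in that total, 6.37-fold relative to miR-186-5p (the miRNA the study took as its stable reference) and 7.08-fold with TMM factors. In the cytoplasm the corresponding values were 6.67-fold, 5.44-fold, 6.17-fold and 4.96-fold. It was called in both fractions under each of these scalings. The scalings moved the median miRNA by up to 0.45 in the nucleus and 0.42 in the cytoplasm on the log2 scale. Measured from that median, the log2 change of miR-210-3p was 2.86 in the nucleus and 2.41 in the cytoplasm on the deposited scale. A rescaling shifts all miRNAs of a library together, so it leaves this distance and the rank of the rise nearly as they are by construction.

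The ratio to miR-186-5p can be read in each library without any size factor. In the cytoplasm miR-210-3p stood at 0.913 and 0.896 of miR-186-5p at 0 h, 0.821 and 0.920 at 2 h, and 6.03 and 5.14 at 24 h. In the nucleus the ratio was 1.38 and 1.68 at 0 h, 1.68 and 1.44 at 2 h, and 9.71 and 9.76 at 24 h. By this measure the nuclear 0 h and 2 h libraries overlapped, and the nuclear ratio exceeded the cytoplasmic one at every time.

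**Figure D3:**
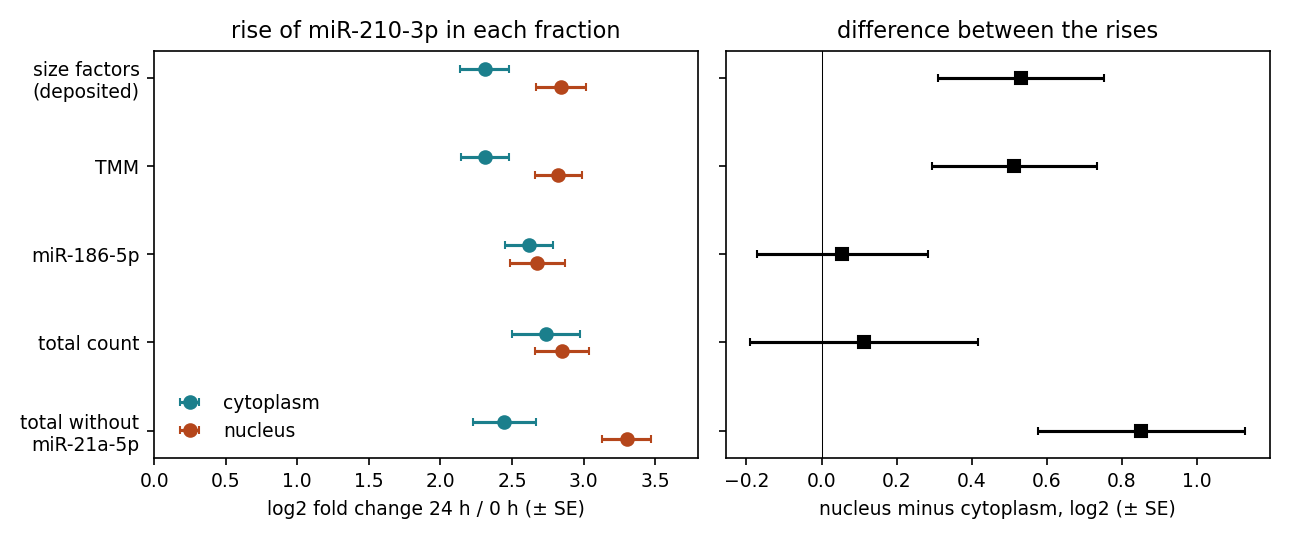
Left, log2 fold change of miR-210-3p at 24 h against 0 h (± SE) in each fraction under 5 scalings of the libraries; right, nucleus minus cytoplasm difference of those changes (log2, ± SE). All 10 rises lie between 2.31 and 3.30, whereas the difference ranges from 0.056 to 0.85.

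miR-210-3p was higher in the nuclear than in the cytoplasmic RNA at each time. The ratio of group means was 1.38 at 0 h, 1.94 at 2 h and 2.00 at 24 h. At 0 h the log2 difference was 0.47 ± 0.16 (limma adjusted p = 0.0146, 37.7% of miRNAs called) and was not called. At 2 h it was 0.95 ± 0.16 (limma adjusted p = 4.77e-05, 35.7% called). At 24 h it was 1.00 ± 0.16 (limma adjusted p = 6.54e-05, 15.7% called). At 2 h and 24 h the adjusted p passed the threshold and the change fell just short of 2-fold, so neither was called. Leaving out replicate 2 of the nucleus gave 1.13 for the earlier and 1.05 for the later time, and leaving out replicate 2 of the cytoplasm gave 1.00 for the later, each of them called. The excess at 0 h was not seen on every scale, since without miR-21a-5p in the total the log2 difference was -0.079 (limma adjusted p = 0.723).

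Over all times with fraction as the only term, the nucleus exceeded the cytoplasm by 0.80 ± 0.62 on the log2 scale and was not called (limma adjusted p = 0.293), where 104 miRNAs (29.7%) were called. An exact permutation test of 6 against 6 libraries gave p = 0.344, 2-sided, with 0.00216 the smallest p it allows. The spread in this comparison includes the rise with time. With time as a further term the same difference had a limma adjusted p of 7.32e-05 and was still under 2-fold. An exact permutation test within the 3 times gave p = 0.00926, 2-sided, which is the smallest p it allows.

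miRNAs that mark the fractions were in part known from these same data, so their ratios cannot measure how well the fractions were separated. The study named miR-3535 and miR-27a-5p as its most location-enriched miRNAs, and checked purity by western blot and with other RNAs. The ratios also moved with time. miR-3535 and miR-1291, which overlap small nucleolar RNAs, were 31.8-fold and 44.3-fold higher in the nucleus at 0 h, and 33.8-fold and 22.6-fold higher at 24 h. miR-5121, the other nuclear reference, was 17.4-fold higher at 0 h and 38.3-fold higher at 24 h. miR-27a-5p, the most cytoplasmic of the fixed references, was 77.0-fold higher in the cytoplasm at 0 h, 57.0-fold at 2 h and 25.9-fold at 24 h. Its mean was 12813 in the cytoplasm at 0 h and 2715 at 24 h, and 166 and 105 in the nucleus. miR-25-5p, the other cytoplasmic reference, was 7.69-fold, 12.6-fold and 14.1-fold higher in the cytoplasm at 0, 2 and 24 h, so these ratios moved in opposite directions with time. The nuclear excess of miR-210-3p was small beside that of the nuclear markers. The part of fraction purity in it was not tested.

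Whether the rise at 24 h was greater in the nucleus than in the cytoplasm was tested as an interaction over the 6 groups. The log2 difference between the rises was 0.53 ± 0.22, a 1.45-fold greater rise in the nucleus with an interval of 1.05 to 1.99, and its limma adjusted p of 0.0561 missed the 0.05 used for this test. Of the 350 miRNAs 162 (46.3%) passed it, and miR-210-3p ranked 121 from the top. This difference depended on the scale. It was 0.11 (adjusted p = 0.804) when scaled to the total count, 0.056 (0.884) relative to miR-186-5p and 0.85 (0.0139) without miR-21a-5p in the total, all by limma. At 2 h the corresponding difference was 0.48 ± 0.22 (limma adjusted p = 0.176, 5.71% passing).

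The 6 group levels ran, from low to high, cytoplasm 2 h, cytoplasm 0 h, nucleus 0 h, nucleus 2 h, cytoplasm 24 h and nucleus 24 h. Neighbors were compared in the fit over all groups at a limma adjusted p under 0.05. Cytoplasm 0 h and 2 h did not differ beyond their spread (adjusted p = 0.803, 0% of miRNAs passing), nor did nucleus 2 h and 0 h (0.171, 4.57%). Nucleus 0 h exceeded cytoplasm 0 h (0.0146, 62.6%) on the deposited scale. Cytoplasm 24 h exceeded nucleus 2 h by 1.51 on the log2 scale (2.80e-07, 53.4%), and nucleus 24 h exceeded cytoplasm 24 h (6.54e-05, 42.6%). Every normoxic and 2 h level in either fraction was therefore below the lower of the 24 h levels.

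Other miRNAs rose at 24 h, but by less. In the nucleus the largest called rises after miR-210-3p were those of miR-669c-5p, with a log2 fold change of 2.15 (962 and 431 at 0 h, 2700 and 3034 at 24 h), miR-193b-3p (1.55), miR-450b-5p (1.43) and miR-669o-5p (1.39). miR-669c-5p and miR-669o-5p come from the large miRNA cluster in an intron of Sfmbt2, and miR-450b-5p from the X-linked cluster that also holds miR-322. In the cytoplasm the next after miR-210-3p was miR-5114, at 1.53 (27.1 and 28.7 at 0 h, 88.2 and 77.0 at 24 h). It was followed by miR-350-3p (1.48), let-7b-5p (1.35), of the growth-restraining let-7 family, and the scarce miR-5113 (1.33, with 11.3 and 31.9 at 0 h, 50.2 and 49.1 at 24 h). The largest of these, miR-669c-5p, reached a 4.12-fold ratio of group means against 7.17-fold for miR-210-3p.

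Of the 350 miRNAs, 27 were called up at 24 h against 0 h in the nucleus and 14 in the cytoplasm. miR-210-3p, miR-5114 and miR-669c-5p were the 3 miRNAs called up in both. miR-5114 was scarce, and its nuclear call lay near the threshold (limma adjusted p = 0.00610). The study's own DESeq2 comparison, with the same cut-offs, lists only miR-210-3p and miR-669c-5p as up in both fractions. The log2 change of miR-5114 was 1.09 in the nucleus and 1.53 in the cytoplasm, and that of miR-669c-5p was 2.15 and 1.14. miR-350-3p and miR-5113, called up in the cytoplasm, had nuclear log2 changes of 0.91 and 1.18 that were not called. miR-210-3p was the 1 miRNA of 350 with a log2 change over 2 in both fractions, and 4 exceeded 1 in both, whether called or not. The rises of miR-669c-5p differed between fractions by 1.01 (limma adjusted p = 0.0470), those of miR-5114 by -0.44 (0.348). let-7b-5p, which rose in the cytoplasm, had a log2 change of -0.28 in the nucleus, and these responses differed (limma adjusted p = 7.56e-05).

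**Figure D4:**
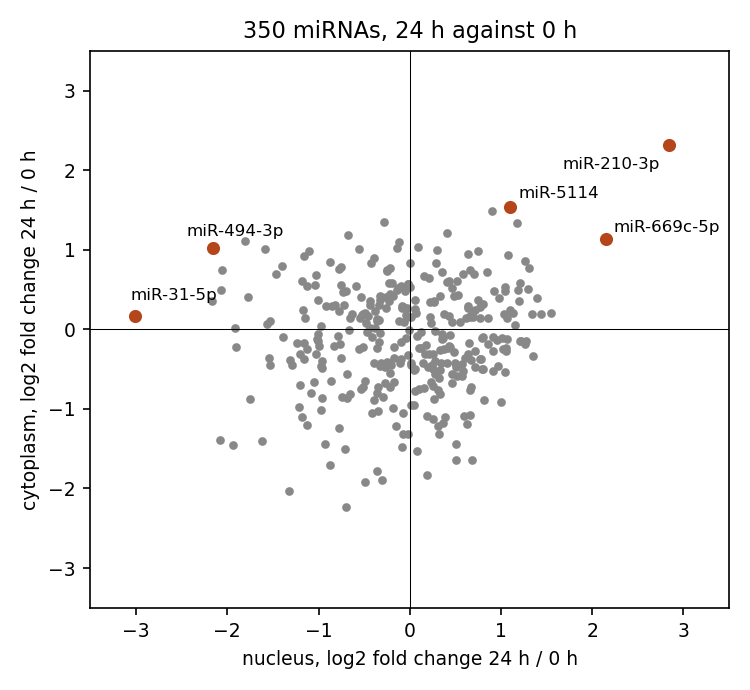
log2 fold change at 24 h against 0 h in the nucleus (x axis) and in the cytoplasm (y axis); each point is 1 of the 350 miRNAs. miR-210-3p (2.84, 2.31) is the only point above 2 on both axes, and miR-31-5p and miR-494-3p, from the hypoxia lists, lie far to the left.

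The miRNAs whose levels ran most closely with miR-210-3p over the 12 libraries were miR-467c-5p (Pearson r = 0.916, Spearman rho = 0.944), miR-339-5p (0.912, 0.776), miR-199b-5p (0.909, 0.888), miR-5114 (0.896, 0.860) and miR-1947-5p (0.881, 0.846). These are descriptions without a test, since the libraries fall into 6 groups and share their scaling. The first 3 were the only ones of 349 with r above 0.9, and the median r was -0.064. The likeness was in shape and not in size. miR-467c-5p, also of the Sfmbt2 cluster, stood at 482 and 371 in the cytoplasm at 0 h and 555 and 552 at 24 h, and at 434 and 449 in the nucleus at 0 h and 866 and 881 at 24 h. Its cytoplasmic groups did not overlap but its change was not called, and in the nucleus its log2 change of 0.98 stayed just under 2-fold. miR-199b-5p had a log2 change of 1.27 in the nucleus (called) and 0.85 in the cytoplasm (not called). The most opposite patterns were those of miR-17-3p (r = -0.905, rho = -0.741) and miR-378a-3p (-0.904, -0.490). miR-378a-3p, encoded within the metabolic coactivator gene Ppargc1b, fell in the nucleus from 34133 and 35440 to 14211 and 15960.

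The mature sequences of 3 of these miRNAs are given with the seed in capitals (bases 2 to 8), and miR-467c-5p and miR-199b-5p are not shown. No other matched miRNA carried the seed of miR-210-3p, so likeness in pattern could not go with a shared seed here.
mmu-miR-339-5p: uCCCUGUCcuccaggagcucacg
mmu-miR-5114: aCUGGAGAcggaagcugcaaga
mmu-miR-1947-5p: aGGACGAGcuagcugagugcug
They are encoded on chromosomes 5, 19 and 16, away from Mir210 on chromosome 7.

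**Figure D5:**
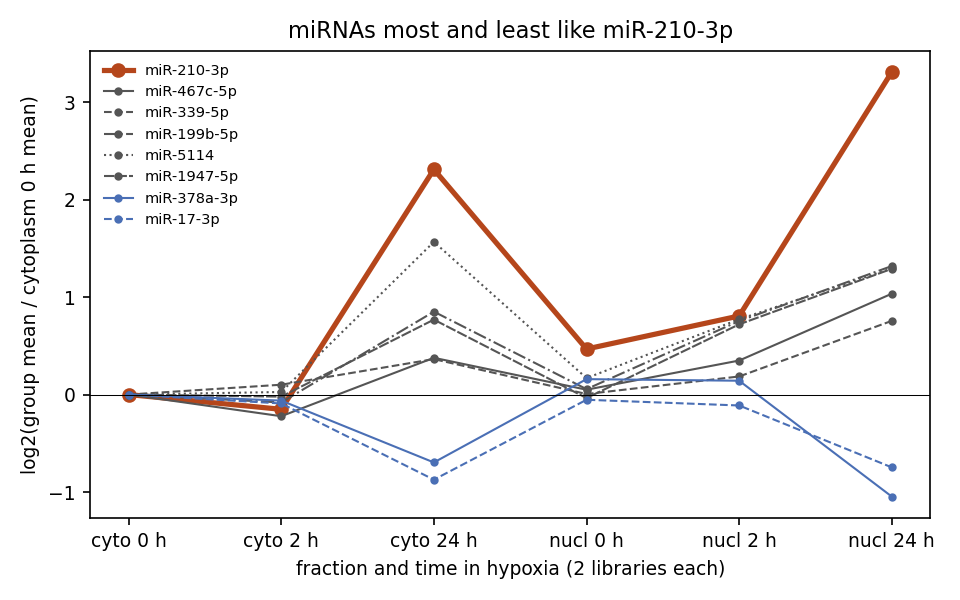
log2 ratio of each group mean to the cytoplasm 0 h mean for miR-210-3p (thick line), the 5 miRNAs with the highest correlation to it (grey) and the 2 with the lowest (blue). The x axis gives fraction and time, with 2 libraries a group. miR-210-3p reaches 2.31 in the cytoplasm at 24 h, above all others shown.

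Of the other miRNAs that have been reported to rise in hypoxia, 1 was called up in each fraction at 24 h. All 23 listed were measured. In the nucleus 1 was called up, miR-322-5p (log2 change 1.03), and 6 were called down, together 30.4% of the list against 20.9% of all miRNAs. miR-103-3p, which acts on Dicer, fell by 2.17 on the log2 scale, miR-494-3p by 2.15 and miR-195a-5p by 1.53, followed by miR-106a-5p (-1.20), miR-382-5p (-1.18) and miR-125b-5p (-1.01). The list had a median of -0.25 against -0.022 over all miRNAs. In the cytoplasm 1 was called up, miR-494-3p (1.02), and 1 down, miR-181a-1-3p (-1.10), together 8.70% of the list against 13.7% of all miRNAs, with a list median of 0.015 against -0.10 over all. At 2 h 0 were called in either fraction. The sign of the nuclear list median turned to 0.21 without miR-21a-5p in the total, where the median of all miRNAs was 0.43.

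miR-494-3p, of the imprinted Dlk1-Dio3 miRNA cluster, went opposite ways in the 2 fractions. Its mean was 514 in the nucleus at 0 h and 118 at 24 h, but 111 in the cytoplasm at 0 h and 218 at 24 h. The responses differed by -3.18 (limma adjusted p = 1.60e-05). In the same test 12 of the 23 listed miRNAs passed, against 46.3% of all miRNAs, and miR-210-3p did not.

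Of 11 miRNAs known to act on the HIF pathway 9 were measured, and 5 were called in the nucleus at 24 h, 1 of them up and 4 down, where 20.9% of all miRNAs were called. miR-322-5p, whose human counterpart stabilizes HIF in endothelial cells through the ubiquitin ligase scaffold CUL2, was called up. Called down were miR-31-5p, which represses the HIF inhibitor FIH in human cells, and miR-20a-5p, miR-17-5p and miR-200b-3p. miR-31-5p had a mean of 45471 at 0 h and 5660 at 24 h in the nucleus (log2 change -3.01, the largest change of any miRNA there) but 5514 and 6237 in the cytoplasm (0.17, not called). miR-20a-5p changed by -1.29, miR-17-5p by -1.16 and miR-200b-3p by -1.13. In the cytoplasm 0 were called up and 1 down, miR-200b-3p (-1.20), where 13.7% of all miRNAs were called. The list median was -0.75 in the nucleus and -0.36 in the cytoplasm, against -0.022 and -0.10 over all miRNAs, and the cytoplasmic one turned to 0.071 when scaled to the total count. Both lists share miR-322-5p, miR-107-3p and miR-155-5p.

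Markers of endothelial cells were measured only in part. Of 4 endothelial markers 3 were measured, with miR-221-3p and miR-222-3p at 3674 to 22414 normalized counts and miR-126a-3p, the most specific of them, at 332 to 860. Of the markers of other cells, 2 of 5 epithelial (summed level 52.6 to 245), 1 of 4 muscle (miR-206-3p, 250.5 to 926), 1 of 2 neuronal (34.0 to 82.5) and the 1 liver marker (21.8 to 155) were measured, and 0 of 5 blood markers. The epithelial sum in the cytoplasm was 116 and 245 at 0 h, 88.4 and 145.5 at 2 h, and 72.9 and 66.4 at 24 h. In the nucleus it was 185 and 150.0 at 0 h, 74.2 and 62.3 at 2 h, and 52.6 and 79.4 at 24 h. It was thus lower at 24 h than at 0 h in both fractions, and in the nucleus already at 2 h. Its part in the rise of miR-210-3p was not tested. Fewer cells of a type and less RNA per cell cannot be told apart in such bulk RNA.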

How the data were processed

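C166 small RNA was sequenced from both cell fractions in libraries made with the NEBNext small RNA kit. The study's methods and processing notes name bcl2fastq for base calls, Trimmomatic for trimming, Bowtie2 2.1.0 for alignment to miRBase, and the authors used DESeq2. The deposited table gives, as signal values, normalized counts (reads over a size factor per library) of 350 miRNAs in 12 libraries. The table's other 30 columns hold the authors' own comparisons and were not used. Some row names carry a numeric suffix, such as +1 for miR-103-3p, miR-125b-5p and miR-218-5p and +11 for miR-669a-5p. The suffix was ignored in matching names, and its meaning is not given in the sources used here. A size factor found for each library returned whole reads for 100% of values (within 0.01). The authors had removed miRNAs of low abundance before deposit, each remaining miRNA had at least 10 reads in every library, and no further filter was applied. These reads gave the shares and exact binomial 95% intervals.

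Comparisons were fitted with limma 3.58.1 (trend) in R 4.3.3 on log2(normalized count + 1) over all 350 miRNAs, with Benjamini-Hochberg adjustment. Changes with time used the 6 libraries of the fraction. All other comparisons used all 12. The fit was tested on simulated data. Permutation values were computed in R, and binomial intervals and correlations in Python 3.11.15 with scipy 1.17.1. miRNA sequences and positions came from RefSeq on GRCm38.p6.

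miR-210-3p, the lists and the rules were chosen with earlier results of these data known. The other miRNAs named are the 5 with the highest and the 2 with the lowest correlation to miR-210-3p, the 4 next largest called rises in each fraction, its neighbors in rank, called members of the hypoxia lists, and fixed reference and marker miRNAs. miR-218-5p was named after its seed was seen. As alternatives, the pseudocount was 0.5 or 10, a mean of at least 100 was required, and libraries were rescaled (by TMM factors with 30% and 5% trimming, by miR-186-5p, or by the total count with or without miR-21a-5p). Others were limma-voom on the recovered reads, time as a further term, each library left out in turn, and a replicate block.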

Additional observations from a re-analysis of the deposited data

How the results depend on the processing

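The rises of miR-210-3p at 24 h, against 0 h and against 2 h in each fraction, were called under all 15 alternatives run for each. Leaving out single libraries gave log2 changes of 2.80 to 2.89 in the nucleus and 2.26 to 2.36 in the cytoplasm against 0 h. The changes at 2 h were called under none of theirs.

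The comparisons of the fractions moved more. At 0 h the nuclear excess became -0.079 without miR-21a-5p in the total, and as neighbors in the order of levels the pair no longer differed when scaled to the total count (0.44). Without single libraries this value was 0.42 to 0.51, and it missed the threshold without replicate 2 of the cytoplasm (0.42, limma adjusted p = 0.0703) or of the nucleus (0.44, 0.0668). At 2 h leaving out libraries gave 0.77 to 1.13, called without nuclear replicate 2 only. At 24 h it gave 0.95 to 1.05, called without replicate 2 of the cytoplasm (1.00) or of the nucleus (1.05). The difference between the rises passed at a minimum mean of 100 (0.53, limma adjusted p = 0.0441, with fewer miRNAs tested) and without miR-21a-5p (0.85), and in no other alternative. Without single libraries it was 0.48 to 0.58. The shares without miR-21a-5p in the denominator were 0.0609%, 0.0538% and 0.331% in the cytoplasm and 0.0575%, 0.0776% and 0.568% in the nucleus. Except for the denominators and the number of miRNAs tested, the cause was not tested.

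The labels do not say whether a replicate number marks a shared culture, and libraries were not treated as pairs. The deviations of same-numbered libraries from their group means correlated at 0.067, 0.24 and 0.094 between fractions at 0, 2 and 24 h. With the replicate block the difference between the rises was 0.53 (limma adjusted p = 0.0501), and no call of miR-210-3p changed. Where a group was left with 1 library, its spread was taken to equal that of the other groups.

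The counts over all miRNAs depended on single libraries. The 73 called in the nucleus at 24 h against 0 h became 43 without replicate 2 of 0 h, and 18 or 25 without replicate 1 or 2 of 24 h. Over the alternatives the counts at 24 h against 2 h ran from 5 to 49 in the nucleus (29) and 2 to 32 in the cytoplasm (26). At 2 h against 0 h they reached 17 in the nucleus (without nuclear replicate 2 of 2 h) and 9 in the cytoplasm (without replicate 2 of 0 h). The 48 called in the cytoplasm at 24 h became 16 relative to miR-186-5p. The 55 called between fractions at 24 h became 88 when scaled to the total count. The 162 that differed in response at 24 h became 99 without cytoplasmic replicate 1 of 24 h, 97 without nuclear replicate 2 of 0 h and 106 without nuclear replicate 2 of 24 h. At 2 h the 20 became 0 to 66. Of the nuclear calls at 24 h, 27 were higher and 46 lower, but 12 and 56 relative to miR-186-5p and 83 and 19 without miR-21a-5p. In the cytoplasm 14 and 34 became 11 and 5, 17 and 20, and, scaled to the total count, 40 and 13.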
